A study of Mus musculus with 13 samples.

Results

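The 10 genes described here mark tuft cells: Dclk1, Trpm5, Pou2f3, Il25, Alox5ap, Il17rb, Avil, Gnat3, Sucnr1 and Ltc4s. They were listed by gene symbol and not by a cut on their measured values, but with earlier results of these data known. Each had 1 probe set, so that 10 of the 10 were found among the 19505 genes with a named probe set. No probe set was removed for low values, and all 10 entered every test.

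The RNA was taken from colon and ileum pieces. All mice were females of the inbred strain FVB, and all groups carried a syngeneic mammary carcinoma that expresses human HER2. The groups were colon of vancomycin mice (3 arrays, replicates 11, 13 and 14), colon of mice without antibiotic (4 arrays, replicates 1, 2, 3 and 5), ileum of vancomycin mice (3 arrays, replicates 11, 13 and 14) and ileum of mice without antibiotic (3 arrays, replicates 1, 2 and 3). Vancomycin, an antibiotic directed at Gram-positive bacteria, was given in drinking water at 200 mg/L from 4 weeks of age, and the mice were killed at 9 weeks (the labels leave unsaid whether of age or of treatment) at a tumour volume of 150 mm3. No group without a tumour was analysed here, and the labels describe the organs as harvested and washed without naming a separation of mucosa and muscle. Values are deposited log2 expression values, and a change is a difference of group means on that scale with its standard error (SE) from limma, a linear model fitted over all probe sets. A gene was counted as changed where its p, adjusted by Benjamini-Hochberg over 19572 probe sets, was under 0.05.

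Tuft cells are rare chemosensory cells of the intestinal epithelium. They sense luminal molecules such as succinate, release IL-25 and cysteinyl leukotrienes, and so act on group 2 innate lymphoid cells, whose IL-13 in turn raises the numbers of tuft and goblet cells in the small intestine. Pou2f3 is the transcription factor on which their formation depends. Several of their genes are also used elsewhere, since Dclk1 and Avil are expressed in neurons and Alox5ap and Ltc4s in macrophages, mast cells and eosinophils.

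The labels fitted the tissues. All 5 measured colon markers were higher in the colon, and all 6 measured ileum markers were lower in the colon than in the ileum, in both treatments. Correlations between arrays over the named probe sets lay between 0.940 and 0.995. One ileum array stood apart. Replicate 11 of the vancomycin ileum had a B cell list mean of 10.2 on the log2 scale, against 7.36 to 8.13 in the 5 other ileum arrays. The same array had a smooth muscle list mean of 14.53 and an enteric neuron and glia list mean of 8.47, against 12.92 to 13.54 and 7.32 to 7.49 in those arrays, and its epithelial list mean was 14.93, against 15.38 to 15.50. Its mean of the tuft cell list beside the members was 8.36, against 7.73 to 7.90, and that of the eicosanoid and acetylcholine list 9.02, against 8.44 to 8.65. Some of the values with this array in them are followed by those without it, and the others may also depend on it. The relation of these values to the muscle, nerve and B cell content of the array was not tested.

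The stretches of 250 bases before the annotated starts of the members that differed between colon and ileum are shown, because POU2F3 belongs to the factors that bind the octamer ATGCAAAT. The sequences are from RefSeq, build GRCm38.p6, read 5′ to 3′ on the gene's own strand, with the octamer, or its 6-letter core ATGCAA where the full octamer is absent, in capitals on either strand. Of the 10 members, 7 had an entry in the table used (8 windows, since Dclk1 has a pair of starts).
Trpm5, chr7:143094643-143094892, minus strand: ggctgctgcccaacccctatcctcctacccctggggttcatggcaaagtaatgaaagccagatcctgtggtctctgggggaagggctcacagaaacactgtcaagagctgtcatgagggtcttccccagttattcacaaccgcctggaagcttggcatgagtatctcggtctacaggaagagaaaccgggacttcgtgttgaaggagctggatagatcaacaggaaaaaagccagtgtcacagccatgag
Gnat3, chr5:17962320-17962569, plus strand: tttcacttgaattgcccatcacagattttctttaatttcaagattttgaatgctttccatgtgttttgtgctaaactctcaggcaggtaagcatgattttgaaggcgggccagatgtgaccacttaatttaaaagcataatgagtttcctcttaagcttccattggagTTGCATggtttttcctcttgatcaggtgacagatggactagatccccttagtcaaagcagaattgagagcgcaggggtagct
Sucnr1, chr3:60081619-60081868, plus strand: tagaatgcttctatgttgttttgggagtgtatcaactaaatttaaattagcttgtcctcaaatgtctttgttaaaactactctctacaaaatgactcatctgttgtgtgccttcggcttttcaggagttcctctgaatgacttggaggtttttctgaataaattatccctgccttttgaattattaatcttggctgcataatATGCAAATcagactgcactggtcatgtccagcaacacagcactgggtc
Dclk1 first start, chr3:55242114-55242363, plus strand: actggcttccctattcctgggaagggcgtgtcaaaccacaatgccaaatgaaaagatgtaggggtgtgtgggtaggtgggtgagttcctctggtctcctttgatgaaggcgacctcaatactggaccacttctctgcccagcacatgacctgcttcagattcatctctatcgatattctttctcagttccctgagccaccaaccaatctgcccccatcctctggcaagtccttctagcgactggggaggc
Dclk1 second start, chr3:55461478-55461727, plus strand: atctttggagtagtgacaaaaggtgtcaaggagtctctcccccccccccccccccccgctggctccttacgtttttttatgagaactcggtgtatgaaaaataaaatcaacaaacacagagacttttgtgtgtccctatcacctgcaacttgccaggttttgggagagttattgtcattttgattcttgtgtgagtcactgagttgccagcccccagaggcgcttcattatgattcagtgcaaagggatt
The octamer was present in 1 member, Sucnr1, and in 526 of 32851 promoter windows of the same length (1.6%). The core, which the octamer contains, was present in 3 members, Sucnr1, Gnat3 and Avil, and in 9.45% of all windows. Trpm5 and both Dclk1 windows held neither. A match is a string of letters in this window and was not tested as a binding site.

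The 10 genes varied over the 13 arrays to very different degrees. The range from the lowest to the highest array was 3.55 on the log2 scale for Gnat3, 3.26 for Trpm5, 3.17 for Dclk1, 2.03 for Sucnr1 and 1.64 for Pou2f3. It was 1.09 for Il25, 1.08 for Avil, 0.68 for Il17rb, 0.63 for Ltc4s and 0.32 for Alox5ap, against a median of 0.97 over all named probe sets. Alox5ap, Ltc4s and Il17rb therefore varied less than the typical probe set. By mean level, these 3 genes and Dclk1 lay outside the dimmest 33.3% of named probe sets, and the 6 other members, among them Trpm5, Gnat3 and Sucnr1, lay inside it. Detection calls were not used, so a low or flat level and a probe set near background cannot be told apart for any member.

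**Figure D1:**
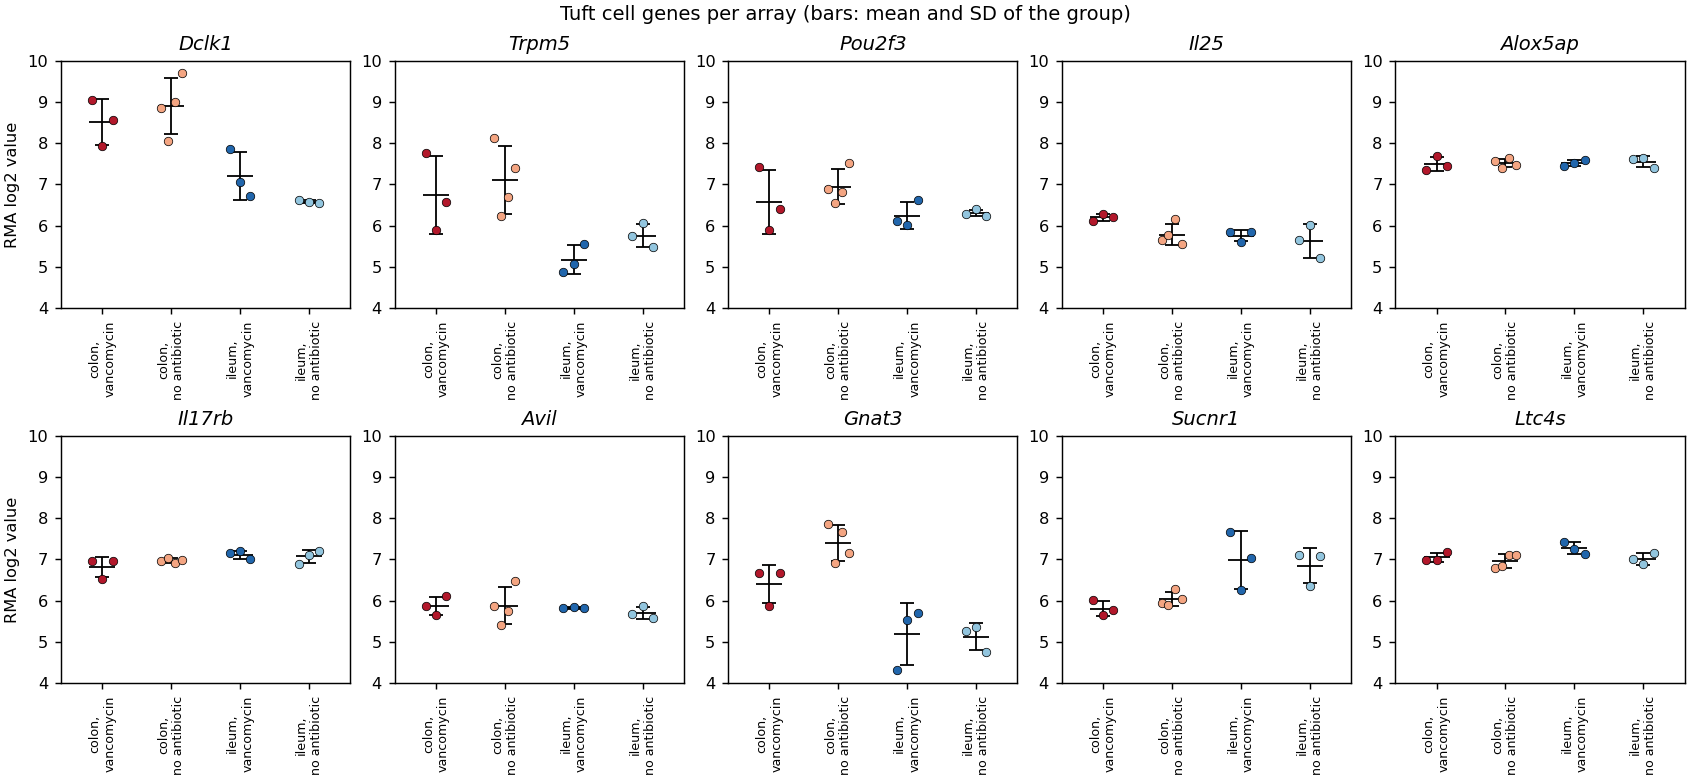
Deposited log2 value (vertical axis) of each of the 10 tuft cell genes on each array, in colon with vancomycin, colon without antibiotic, ileum with vancomycin and ileum without antibiotic; points are arrays, and bars are the group mean and SD. Dclk1, Trpm5 and Gnat3 are higher in the colon, Sucnr1 is lower in the colon, and Alox5ap spans 0.32 over all arrays.

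Gnat3, the alpha subunit of gustducin that couples taste-type receptors, had values of 6.68, 5.86 and 6.66 in vancomycin colon and 7.87, 6.92, 7.67 and 7.16 in colon without antibiotic. In the ileum it had 4.32, 5.52 and 5.70 with vancomycin and 5.26, 5.36 and 4.76 without antibiotic. The 7 colon arrays all lay above the 6 ileum arrays, and the colon groups did not overlap with each other.

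Trpm5, the cation channel that opens downstream of these receptors, had values of 7.76, 5.90 and 6.56 in vancomycin colon and 8.13, 6.23, 6.70 and 7.40 in colon without antibiotic. In the ileum it had 4.87, 5.07 and 5.56 with vancomycin and 5.75, 6.05 and 5.47 without antibiotic. Replicate 13 of the vancomycin colon lay below 1 ileum array, and both treatments overlapped within each tissue. Sucnr1, the receptor through which tuft cells respond to succinate, ran the other way. It had values of 6.01, 5.64 and 5.76 in vancomycin colon, 5.95, 5.90, 6.29 and 6.04 in colon without antibiotic, 7.67, 6.25 and 7.03 in vancomycin ileum, and 7.10, 6.35 and 7.09 in ileum without antibiotic. Within each treatment its colon arrays lay below its ileum arrays.

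Dclk1, a microtubule-associated kinase widely used as a tuft cell marker, had values of 9.06, 7.93 and 8.57 in vancomycin colon and 8.86, 8.06, 9.01 and 9.71 in colon without antibiotic. In the ileum it had 7.86, 7.05 and 6.72 with vancomycin and 6.63, 6.58 and 6.54 without antibiotic. Every vancomycin ileum array was above every ileum array without antibiotic, although replicate 14 exceeded the highest of them by little. The lineage factor Pou2f3 had values of 7.42, 5.89 and 6.41 in vancomycin colon, 6.90, 6.54, 6.82 and 7.53 in colon without antibiotic, 6.11, 6.01 and 6.61 in vancomycin ileum, and 6.29, 6.39 and 6.23 in ileum without antibiotic. Its colon and ileum arrays were separate without antibiotic and overlapped under vancomycin. Avil, which encodes the actin-binding protein advillin, lay between 5.66 and 6.10 in vancomycin colon, 5.40 and 6.48 in colon without antibiotic, 5.81 and 5.84 in vancomycin ileum and 5.58 and 5.87 in ileum without antibiotic.

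Il25, the cytokine that tuft cells send to innate lymphoid cells, had values of 6.10, 6.29 and 6.20 in vancomycin colon and 5.65, 5.76, 6.15 and 5.55 in colon without antibiotic. In the ileum it had 5.84, 5.59 and 5.84 with vancomycin and 5.64, 6.02 and 5.20 without antibiotic. In the colon 1 array without antibiotic, replicate 3, reached into the vancomycin range. Il17rb, a subunit of the IL-25 receptor that tuft cells also carry, stayed between 6.53 and 6.97 in vancomycin colon, 6.91 and 7.03 in colon without antibiotic, 7.01 and 7.20 in vancomycin ileum and 6.90 and 7.21 in ileum without antibiotic.

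The leukotriene genes were the flattest. Alox5ap, the protein that presents arachidonic acid to 5-lipoxygenase, averaged 7.50 ± 0.16 in vancomycin colon (SD, n = 3) and 7.52 ± 0.11 in colon without antibiotic (SD, n = 4). It averaged 7.52 ± 0.08 in vancomycin ileum and 7.55 ± 0.14 in ileum without antibiotic (SD, n = 3 each). Ltc4s, the synthase of leukotriene C4, averaged 7.05 ± 0.11 in vancomycin colon (SD, n = 3), 6.96 ± 0.17 in colon without antibiotic (SD, n = 4), and 7.27 ± 0.14 in vancomycin ileum against 7.02 ± 0.15 in ileum without antibiotic (SD, n = 3 each). No pair of groups of Alox5ap was separated.

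The first question was whether vancomycin moved tuft cell genes in the colon. None of the 10 passed the threshold in limma's test, where 0.0102% of all probe sets passed, and 2 of the 10 had an unadjusted p under 0.05, where 15.9% of all did. Gnat3 averaged 6.40 ± 0.47 in vancomycin colon (SD, n = 3) and 7.41 ± 0.44 in colon without antibiotic (SD, n = 4). Its change was -1.01 (SE 0.33, 95% confidence interval -1.72 to -0.29, limma adjusted p = 0.190), with an unadjusted p under 0.05. It was the 1 member whose groups did not overlap (12.3% of all probe sets did not), and the change lay between -1.17 and -0.73 when each colon array was left out in turn, with adjusted p from 0.149 to 0.450. Il25 averaged 6.20 ± 0.10 in vancomycin colon (SD, n = 3) and 5.78 ± 0.26 in colon without antibiotic (SD, n = 4), a change of 0.42 (SE 0.19, limma adjusted p = 0.304), and was the other member with an unadjusted p under 0.05.

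The other 8 members had changes between -0.39 and 0.10 in the colon. Dclk1 had a change of -0.39 (SE 0.35), Trpm5 -0.37 (SE 0.44) and Pou2f3 -0.37 (SE 0.31), each smaller than the SD of its arrays within the groups. With each colon array left out in turn, the change ran from -0.67 to -0.09 for Dclk1, from -0.89 to 0.04 for Trpm5 and from -0.80 to -0.03 for Pou2f3. The upper ends were those without vancomycin replicate 13, and the lower ends those without vancomycin replicate 11 for Trpm5 and Pou2f3 and without replicate 2 of the colon without antibiotic for Dclk1. Over the 10 members 7 differences were negative and 3 positive, and their median was -0.20, against 0.02 over all probe sets. These intervals were wide. For Trpm5 the 95% interval ran from -1.31 to 0.56, whereas for Alox5ap it ran from -0.30 to 0.26. In bulk tissue, the number of tuft cells, the RNA per tuft cell and RNA from other cells cannot be told apart.

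The same comparison in the ileum gave no member past the threshold, where 0.536% of all probe sets passed, and 0 members with an unadjusted p under 0.05 in limma's test, where 10.1% of all did. Dclk1 averaged 7.21 ± 0.59 in vancomycin ileum and 6.58 ± 0.05 in ileum without antibiotic (SD, n = 3 each), a change of 0.63 (SE 0.38, 95% interval -0.19 to 1.44, limma adjusted p = 0.598). It was the 1 member whose groups did not overlap, as in 16.9% of all probe sets. Without replicate 11 of the vancomycin ileum, the array with high muscle, neuron and B cell lists, the change was 0.30 (limma adjusted p = 0.850). Trpm5 had a change of -0.59 (SE 0.47, limma adjusted p = 0.695), Ltc4s of 0.26 (SE 0.15, limma adjusted p = 0.579) and Gnat3 of 0.05 (SE 0.35, limma adjusted p = 0.978). Without that replicate the change of Gnat3 was 0.48 (limma adjusted p = 0.637) and that of Sucnr1 was -0.21 (limma adjusted p = 0.850), against 0.14 with it. Those of Trpm5 and Ltc4s were -0.44 and 0.18 without it (limma adjusted p = 0.838 and 0.764). The remaining changes, of Pou2f3, Il25, Alox5ap, Il17rb and Avil, lay between -0.06 and 0.14. Of the 10 differences 7 were positive and 3 negative, with a median of 0.08, against 0.02 over all probe sets.

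**Figure D2:**
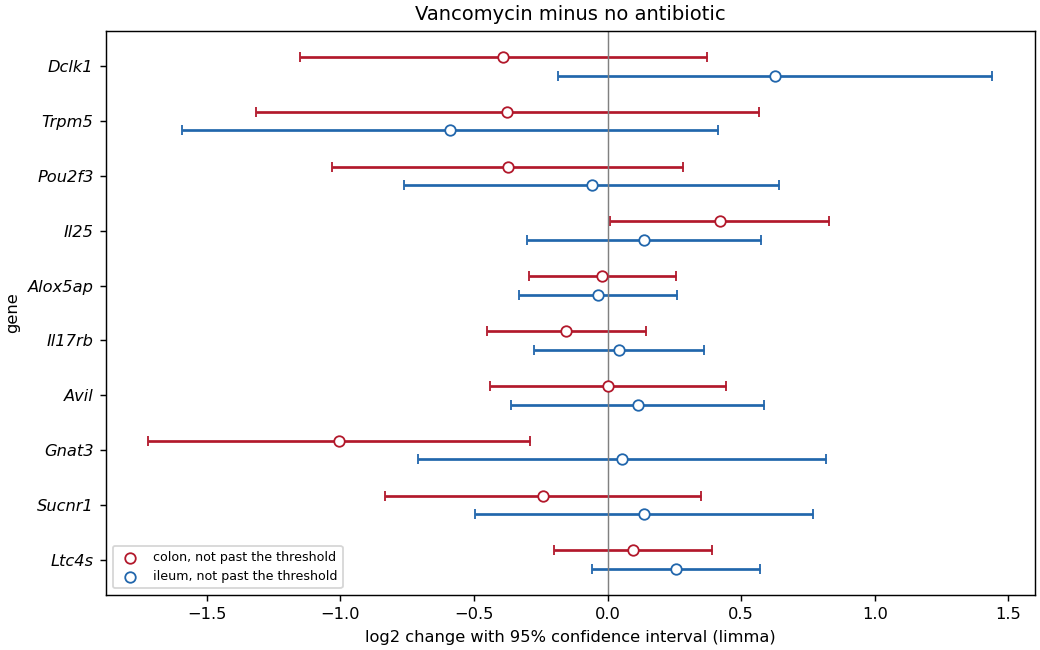
Change with vancomycin (horizontal axis, log2, vancomycin minus no antibiotic) of the 10 genes in colon and ileum; points are estimates, bars are 95% confidence intervals from limma, and open points did not pass an adjusted p of 0.05. The interval of Gnat3 in colon, -1.72 to -0.29, and that of Il25 in colon lie to one side of 0, and all points are open.

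The difference between the tissues in their response was tested directly as the ileum change minus the colon change. No member passed, where 0.189% of all probe sets did. Gnat3 had the smallest p of the 10, with a difference of 1.06 (SE 0.49, limma adjusted p = 0.615), and it was the 1 member with an unadjusted p under 0.05, where 8.01% of all probe sets had one. Dclk1 followed with 1.02 (SE 0.52, limma adjusted p = 0.675). Without replicate 11 of the vancomycin ileum the difference was 1.49 for Gnat3 (limma adjusted p = 0.166) and 0.69 for Dclk1 (limma adjusted p = 0.728). Averaged over both tissues, 0 members passed, where 0.674% of all did, and 0 had an unadjusted p under 0.05 in limma's test, where 18.2% of all did. The mean change was 0.28 for Il25 (limma adjusted p = 0.306), -0.48 for Gnat3 (limma adjusted p = 0.315) and -0.48 for Trpm5 (limma adjusted p = 0.440). Without that replicate they were 0.26, -0.26 and -0.41. The averaged and the separate changes rest on the same arrays.

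The second question was how the genes differ between colon and ileum. Without antibiotic, 3 of the 10 members passed the threshold and all were higher in the colon, where 20.5% of all probe sets passed, 11% as higher and 9.59% as lower in the colon. An unadjusted p under 0.05 was found for 4 members, Sucnr1 being the other one, and for 30.5% of all probe sets. Dclk1 averaged 8.91 ± 0.68 in colon (SD, n = 4) and 6.58 ± 0.05 in ileum (SD, n = 3), a difference of 2.33 (SE 0.35, limma adjusted p = 0.000264). Gnat3 averaged 7.41 ± 0.44 in colon (SD, n = 4) and 5.13 ± 0.32 in ileum (SD, n = 3), a difference of 2.28 (SE 0.33, limma adjusted p = 0.000181). Both passed in all 7 fits that left out 1 array.

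Trpm5 was also higher in the colon, by 1.36 (SE 0.44, 95% interval 0.42 to 2.30, limma adjusted p = 0.0409). This call rested on single arrays. Trpm5 passed in 2 of the 7 fits with 1 array left out, and its difference was 1.02 (limma adjusted p = 0.112) without replicate 1 and 1.26 (limma adjusted p = 0.0962) without replicate 5 of the colon. Without ileum replicate 1, 2 or 3 the limma adjusted p of Trpm5 was 0.105, 0.0653 or 0.150. Sucnr1 averaged 6.05 ± 0.17 in colon (SD, n = 4) and 6.85 ± 0.43 in ileum (SD, n = 3), a difference of -0.80 (SE 0.28, limma adjusted p = 0.0548) that missed the threshold here and passed it in 6 of 7 other settings. These settings reuse the same arrays and are not independent checks. Without ileum replicate 2 the difference of Sucnr1 was -1.05 (limma adjusted p = 0.0259). Pou2f3 had a difference of 0.64 (SE 0.31, limma adjusted p = 0.173). These 5 members were the ones whose tissues did not overlap, as in 32.2% of all probe sets. Il25, Alox5ap, Il17rb, Avil and Ltc4s had differences between -0.10 and 0.17. The median over the 10 members was 0.16, against 0.04 over all probe sets.

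Under vancomycin, 4 of the 10 members passed between colon and ileum, 3 higher and 1 lower in the colon, where 15.1% of all probe sets passed (7.45% higher and 7.67% lower). An unadjusted p under 0.05 was found for 5 members, with Il25 the fifth, and for 26.7% of all probe sets. Dclk1 was higher in the colon by 1.31 (SE 0.38, limma adjusted p = 0.0302), Trpm5 by 1.57 (SE 0.47, limma adjusted p = 0.0348) and Gnat3 by 1.22 (SE 0.35, limma adjusted p = 0.0314). Sucnr1 was lower in the colon, with an average of 5.80 ± 0.19 in colon and 6.98 ± 0.71 in ileum (SD, n = 3 each) and a difference of -1.18 (SE 0.29, limma adjusted p = 0.0132). The tissues did not overlap for these 4, for Il25 (difference 0.44, SE 0.20, limma adjusted p = 0.183) and for Il17rb (difference -0.30, SE 0.15, limma adjusted p = 0.217), which makes 6 members, against 27.4% of all probe sets.

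The 4 calls under vancomycin depended on the model and on single arrays. When the vancomycin groups were fitted alone, the limma adjusted p was 0.0667 for Dclk1, 0.0673 for Trpm5, 0.105 for Gnat3 and 0.0709 for Sucnr1. Without replicate 11 of the vancomycin colon, Dclk1, Trpm5 and Gnat3 had differences of 1.04, 1.06 and 1.08 with limma adjusted p of 0.119, 0.143 and 0.102, and without replicate 14 the limma adjusted p was 0.0860, 0.0701 and 0.115. Without replicate 11 of the ileum the difference of Trpm5 was 1.42 (limma adjusted p = 0.0695) and that of Gnat3 0.79 (limma adjusted p = 0.0860), without replicate 13 those of Dclk1 and Trpm5 were 1.23 and 1.52, neither past the threshold, and without replicate 14 that of Dclk1 was 1.06 (limma adjusted p = 0.128). For Sucnr1 the limma adjusted p was 0.0517 without replicate 13 of the vancomycin colon.

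**Figure D3:**
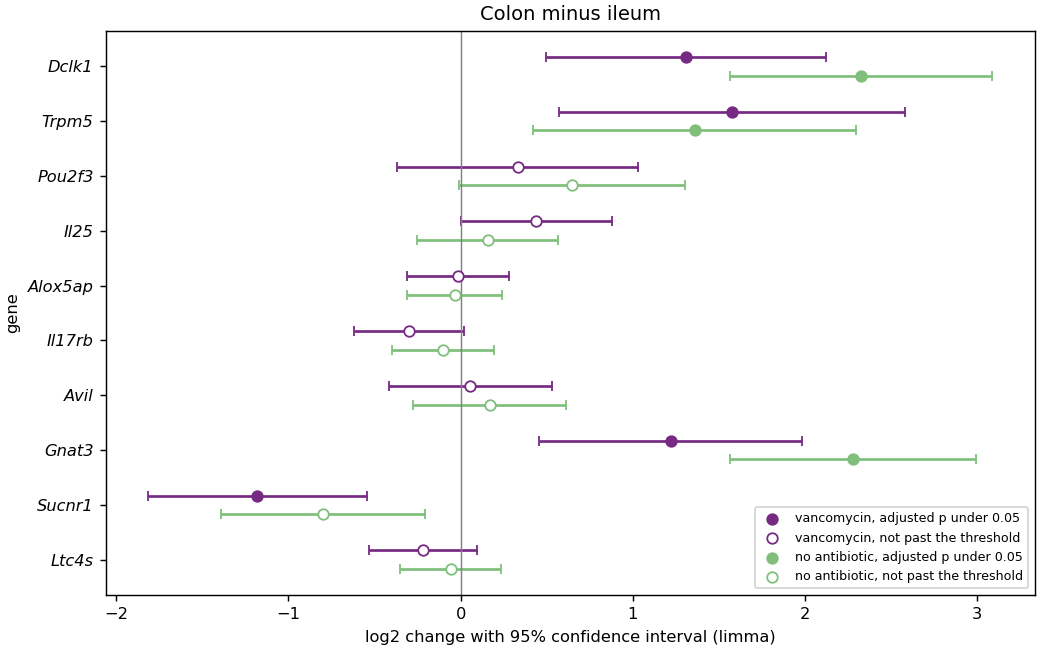
Difference between colon and ileum (horizontal axis, log2, colon minus ileum) of the 10 genes under vancomycin and without antibiotic; points are estimates, bars are 95% confidence intervals from limma, and filled points passed an adjusted p of 0.05. Dclk1, Trpm5 and Gnat3 are filled to the right of 0 in both treatments, and Sucnr1 is filled to the left of 0 under vancomycin, at -1.18.

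Set by group mean, Dclk1, Trpm5, Gnat3 and Pou2f3 had the order colon without antibiotic, colon with vancomycin and then the ileum groups. The vancomycin and no-antibiotic means of these genes did not differ past the threshold within either tissue. Sucnr1 had the order ileum with vancomycin, ileum without antibiotic, colon without antibiotic and colon with vancomycin.

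No further tuft cell gene passed the threshold with vancomycin in colon or ileum when all arrays were used. The list of taste-type and calcium signalling had 11 of 12 genes measured, that of eicosanoid and acetylcholine synthesis 11 of 12 and that of other tuft cell transcripts 26 of 30. At unadjusted p under 0.05 there were 1, 2 and 5 of them in limma's test in the colon and 0, 1 and 0 in the ileum, where 15.9% and 10.1% of all probe sets had one. The smallest p in the colon belonged to Tppp3, a microtubule-bundling protein, which averaged 9.62 with vancomycin and 10.84 without antibiotic, a change of -1.21 (SE 0.29, limma adjusted p = 0.117). Pde2a, a cyclic nucleotide phosphodiesterase, had a change of -0.78 in the colon (SE 0.24, limma adjusted p = 0.178), and Ptges, a prostaglandin E synthase, one of -0.64 (SE 0.23, limma adjusted p = 0.205). In the opposite direction, Cd300lf, a tuft cell surface receptor that murine norovirus uses, had a change of 0.50 in the colon (SE 0.18, limma adjusted p = 0.208). In the ileum the smallest p belonged to Slc5a7, the choline transporter, with a change of 0.75 (SE 0.27, limma adjusted p = 0.347), and Gng13, the gamma subunit that pairs with gustducin, had a change of 0.31 (SE 0.20, limma adjusted p = 0.620). Without replicate 11 of the vancomycin ileum the change of Slc5a7 was 0.39 (limma adjusted p = 0.554) and that of Gng13 was 0.44 (limma adjusted p = 0.503). In that fit, 2 of the 26 other tuft cell transcripts passed as lower in the vancomycin ileum and 0 as higher, and 172 of 19572 probe sets passed in either direction. They were Fyb and Lrmp, which lymphoid cells also express, with changes of -0.92 and -0.99 (limma adjusted p = 0.0283 and 0.0205), against -0.43 and -0.29 with all arrays (limma adjusted p = 0.665 and 0.856). Both were named after their values were seen.

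Between the tissues, 2 of the 11 taste-type genes were higher and 3 lower in the colon without antibiotic, where 11% and 9.59% of all probe sets were. Rgs13, a regulator of G protein signalling, was higher by 2.37 (SE 0.60, limma adjusted p = 0.0117) and Pde2a by 1.80 (SE 0.24), whereas the difference was -1.38 (SE 0.24) for Itpr2, a calcium release channel, -0.89 (SE 0.18) for Plcg2 and -0.58 (SE 0.18) for Tas1r3, a shared subunit of the sweet and umami receptors. Their median was -0.01, against 0.04 over all probe sets. Of the 11 eicosanoid and acetylcholine genes, 4 were higher and 0 lower in the colon: Pla2g4a, the phospholipase that frees arachidonic acid, by 2.38 (SE 0.23), Alox5, the 5-lipoxygenase itself, by 1.28 (SE 0.22), Hpgds, the prostaglandin D synthase, by 1.06 (SE 0.29) and Slc5a7 by 0.82 (SE 0.25). Their median was 0.40. The 2 leukotriene genes among the members, Alox5ap and Ltc4s, had differences of -0.03 and -0.06 in the same comparison.

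Of the 26 other tuft cell transcripts, 8 were higher and 0 lower in the colon without antibiotic, with a list median of 0.23. The 6 largest differences were 2.57 for Tppp3, 2.18 for Sox9, a transcription factor of crypt and tuft cells, 1.47 for Ptpn18, 1.35 for Nrep, 1.16 for Bmx, a tyrosine kinase, and 1.11 for Cd24a. Under vancomycin the counts were 2 higher and 3 lower for the taste-type list, 2 and 0 for the eicosanoid list and 4 and 0 for the other transcripts, where 7.45% of all probe sets were higher and 7.67% lower. The counts were 3 and 3, 2 and 1, and 8 and 0 without replicate 11 of the vancomycin ileum. Pde2a, Pla2g4a, Hpgds, Sox9 and Ptpn18 again passed as higher in the colon, by 0.82, 1.92, 1.69, 1.34 and 1.37. The comparisons between tissues use different arrays in the 2 treatments.

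Genes of the type 2 circuit around tuft cells were measured for 16 of 20 entries. None passed the threshold with vancomycin in colon or ileum. Averaged over both tissues, 1 gene was lower and 0 higher: Il13ra1, a receptor subunit for IL-13, with a mean change of -0.71 (SE 0.15, limma adjusted p = 0.0489), made up of -0.64 in the colon and -0.78 in the ileum. Its mean change was -0.60 without replicate 11 of the vancomycin ileum (limma adjusted p = 0.0499). Retnlb, a goblet cell product induced by IL-13, averaged 12.84 in vancomycin colon and 14.72 in colon without antibiotic, a change of -1.88 (SE 0.61, limma adjusted p = 0.185). Clca1, another goblet cell product of the same circuit, had a change of -0.66 in the colon (SE 0.20, limma adjusted p = 0.173). The list median was -0.10 in the colon and 0.01 in the ileum. Between tissues without antibiotic, Retnlb was higher in the colon by 3.80 (SE 0.61), and Il4ra, the receptor subunit shared by IL-4 and IL-13, and Cysltr2, a cysteinyl leukotriene receptor, had differences of -1.35 (SE 0.22) and -1.21 (SE 0.24).

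Markers of other cells also differed between some of the groups. In the colon, all 11 goblet cell genes had a negative difference with vancomycin, 10 of them with an unadjusted p under 0.05 in limma's test and 0 past the threshold. Over all probe sets 15.9% had such a p and 0.0102% passed the threshold. The goblet list mean ranged from 13.58 to 14.64 in vancomycin colon and from 14.90 to 15.22 in colon without antibiotic. These ranges did not overlap, as for Gnat3. Means of the macrophage, epithelial and colon marker lists did not overlap either, with the lower values under vancomycin. Of single probe sets 12.3% did not overlap in this comparison, and no such share was computed for list means. Once group means were subtracted, Pearson's r between Gnat3 and the goblet list mean was 0.07 over 13 arrays (exact permutation p = 0.860, adjusted p = 0.963). Within the colon it was 0.05. The part of goblet cells in the Gnat3 values was not tested. Macrophage, mast cell and eosinophil lists, which share Alox5ap and Ltc4s with tuft cells, had 0 genes past the threshold with vancomycin in either tissue. In the comparison of colon and ileum without antibiotic, 8 of 10 smooth muscle genes passed as higher in the colon, with a median of 1.30. So did 6 of 12 genes of enteric neurons and glia, with a median of 0.67. Of the goblet cell genes 6 of 11 passed as higher and 0 as lower (median 0.86). Of the enteroendocrine genes 6 of 11 passed as higher and 1 as lower (median 0.67). Of the macrophage genes 1 of 11 passed as higher and 3 as lower (median 0.135). Over all probe sets 11% passed as higher and 9.59% as lower. Smooth muscle list means ranged from 13.60 to 14.68 in colon and from 12.92 to 13.09 in ileum without antibiotic. The epithelial list ran the other way, from 14.82 to 14.95 in colon and from 15.43 to 15.50 in ileum. Of the genes in lists of other cells, 4 passed for the vancomycin change in colon, in ileum, in their difference or in their mean. Over all probe sets 0.0102%, 0.536%, 0.189% and 0.674% passed in these comparisons. Elf3, an epithelial transcription factor, had a change of -1.08 in the ileum (SE 0.21, limma adjusted p = 0.0358), and Car1, a carbonic anhydrase of the colon, a mean change of -1.07 over both tissues (SE 0.20, limma adjusted p = 0.0322). The ileum change minus the colon change was 2.10 (SE 0.33, limma adjusted p = 0.0184) for Tph1, the serotonin-forming enzyme of enteroendocrine cells, and -2.17 (SE 0.37, limma adjusted p = 0.0349) for Mcpt1, a mucosal mast cell protease. All 4 also passed without replicate 11 of the vancomycin ileum. The part of muscle, nerve, goblet, enteroendocrine and other epithelial cells in the differences of Dclk1, Gnat3 and Trpm5 between the tissues was not tested. Nor was the part of epithelial cells and macrophages in the difference of Sucnr1 between the tissues.

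Deviations of the members were also set against those of the list means, and no relation passed the adjustment. After the group mean was subtracted from each array, Pearson's r between Dclk1 and the smooth muscle list mean was 0.86 over 13 arrays (exact permutation within groups, two-sided, p = 0.0125, adjusted p = 0.285 over 150 pairs of a member and a list) and Spearman's rho was 0.85 (exact permutation p = 0.0135, adjusted p = 0.503). Without the 2 arrays farthest from the median r was 0.77, within the colon it was 0.83 and within the ileum 0.98. It was 0.83 without replicate 11 of the vancomycin ileum, over 12 arrays, and 0.86 over the 5 ileum arrays left. For the enteric neuron and glia list r was 0.75 (exact permutation p = 0.00212, adjusted p = 0.145) and rho 0.81 (exact permutation p = 0.00810, adjusted p = 0.405), with r = 0.76 without the 2 farthest arrays. For Dclk1 and the taste-type list r was 0.87 (exact permutation p = 0.00270, adjusted p = 0.145) and rho = 0.86 (exact permutation p = 0.00270, adjusted p = 0.405), and r = 0.77 without the 2 farthest arrays. Without replicate 11 of the vancomycin ileum this r was 0.86 over 12 arrays. Within the ileum it was -0.26 without that replicate and 0.65 with it. A negative relation, of a gene that spanned 0.32 over all arrays, also had an adjusted p of 0.145. Alox5ap and the list of other tuft cell transcripts had r = -0.54 (exact permutation p = 0.00289, adjusted p = 0.145) and rho = -0.70 (exact permutation p = 0.00694, adjusted p = 0.405), with r = -0.63 without the 2 farthest arrays. Without that ileum replicate their r was -0.76 over 12 arrays. Dclk1 had r = 0.67 with the list of other tuft cell transcripts (exact permutation p = 0.00502, adjusted p = 0.188). With the eicosanoid and acetylcholine list Dclk1 had r = 0.74 (exact permutation p = 0.0133, adjusted p = 0.285). Sucnr1 and the taste-type list had r = 0.62 (exact permutation p = 0.00656, adjusted p = 0.197). These r were 0.63, 0.64 and 0.56 over 12 arrays without replicate 11 of the vancomycin ileum. Replicate 2 of the colon without antibiotic and replicate 13 of the vancomycin colon had the lowest muscle list means of the colon, 13.60 and 13.68, and the lowest Dclk1 values of the colon, 8.06 and 7.93. For Gnat3, r with the smooth muscle list was 0.86 within the colon and -0.88 within the ileum, and -0.20 within the ileum without replicate 11. Colon and ileum arrays of 1 number may come from 1 mouse, so the 13 arrays may not be independent.

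**Figure D4:**
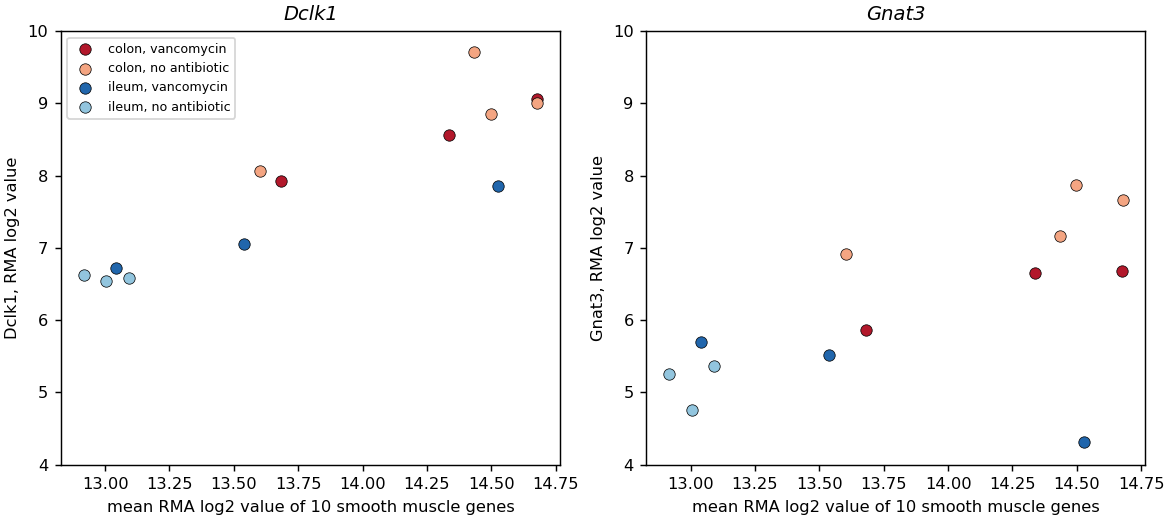
Log2 value of Dclk1 and of Gnat3 (vertical axes) against the mean log2 value of 10 smooth muscle genes (horizontal axis) on each of 13 arrays; colours mark the 4 groups. The vancomycin ileum array at 14.53 on the horizontal axis is replicate 11, with the highest ileum value of Dclk1 (7.86) and the lowest value of Gnat3 (4.32).

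Among the members themselves, deviations from the group means were compared for 45 pairs. Of these, 24 had a positive r and 0 passed the adjustment over 45 pairs. The largest r in size was negative, between genes that varied less than the typical probe set (ranges of 0.32 for Alox5ap and 0.68 for Il17rb). Alox5ap and Il17rb had r = -0.80 (exact permutation within groups, two-sided, p = 0.00502, adjusted p = 0.226) and rho = -0.73 (exact permutation p = 0.0235, adjusted p = 0.319), with -0.86 within the colon, -0.69 within the ileum and -0.68 without the 2 arrays farthest from the median. The largest positive r was that of Trpm5 and Pou2f3, 0.78 (exact permutation within groups, two-sided, p = 0.0376, adjusted p = 0.443) and rho = 0.83 (exact permutation p = 0.00598, adjusted p = 0.269). Their r was 0.77 within the colon, 0.83 within the ileum and 0.88 without the 2 arrays farthest from the median. Il25 and Alox5ap had r = 0.64 (exact permutation p = 0.0394, adjusted p = 0.443) and rho = 0.72 (exact permutation p = 0.0231, adjusted p = 0.319), with r = 0.50 without the 2 farthest arrays. Trpm5 and Gnat3 had r = 0.64 (exact permutation p = 0.0313, adjusted p = 0.443) and rho = 0.69 (exact permutation p = 0.0284, adjusted p = 0.319), with r = 0.59 without the 2 farthest arrays. Dclk1 and Trpm5 had r = 0.46 (exact permutation p = 0.246, adjusted p = 0.761) and rho = 0.25 (exact permutation p = 0.522, adjusted p = 0.854), and r was 0.69 in the colon and -0.67 in the ileum. For Dclk1 and Avil r was 0.71 (exact permutation p = 0.0602, adjusted p = 0.542) and rho 0.48 (exact permutation p = 0.188, adjusted p = 0.622), and r was 0.26 without the 2 farthest arrays, so that this relation rested on them.

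**Figure D5:**
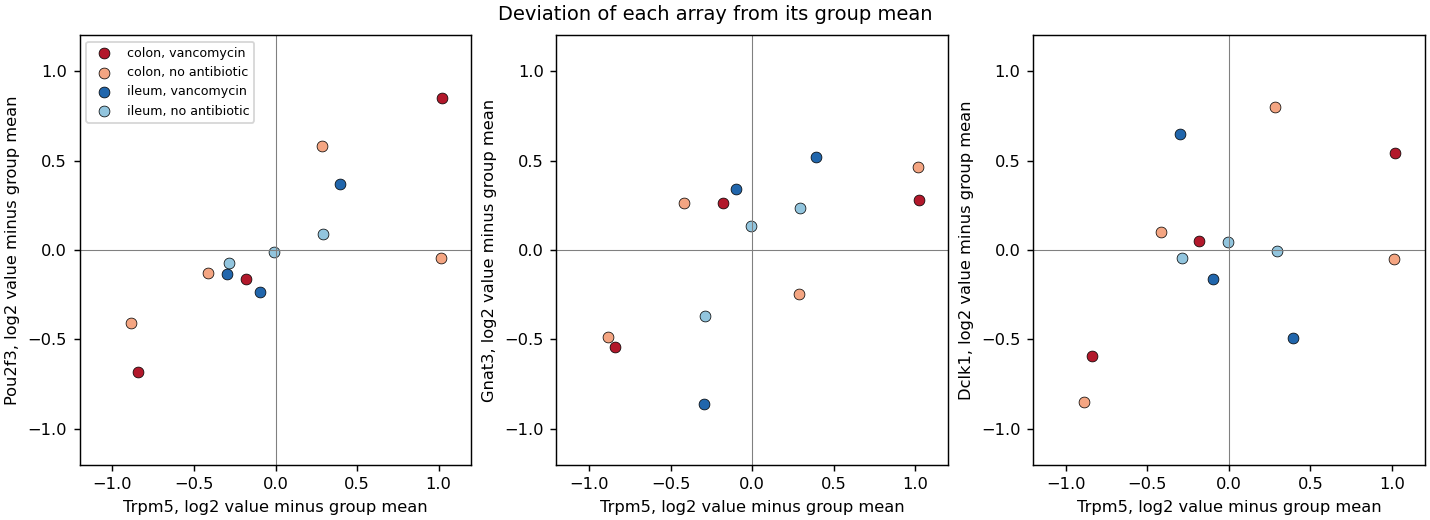
Deviation of each array from its group mean (log2) for Trpm5 on the horizontal axes against Pou2f3, Gnat3 and Dclk1 on the vertical axes; each point is 1 of 13 arrays, coloured by group. The Pou2f3 panel shows the points along 1 diagonal (r = 0.78), and the Dclk1 panel shows the ileum points against it (r = -0.67 within the ileum).

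The genes whose within-group deviations were most like those of Trpm5 over the 13 arrays were in none of the tuft cell lists. They were Slc39a8 (r = 0.96), Vav3 (0.95), Sccpdh (0.95), Fabp2 (0.95), Ugt2b5 (0.95) and Bend7 (0.94). The 9 other members had 0 genes among the 100 most alike of 19571 probe sets, with Pou2f3 the closest of them. Every other list had 0 as well. With so few genes in a list against 19571 probe sets, a count of 0 says little about the list. For the mean of the 10 members the most alike genes were Olfr1095 (r = 0.93), Cldn15 (0.93), B4galnt1 (0.92), Arhgap20 (0.92), Isx (0.91) and Slc13a1 (0.91). Among the 100 of 19562 probe sets most like that mean were 3 of the 26 other tuft cell transcripts, with Pik3r5 the closest (r = 0.86). So was 1 of the 11 taste-type genes, Itpr2 (r = 0.82). The eicosanoid and acetylcholine list, the type 2 list and the lists of other cells had 0. These are descriptions over 13 arrays, chosen as the highest of all genes, and the 7 colon arrays, which spread most, weigh most in them.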

How the data were processed

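Each array measured RNA from 1 sample of colon or ileum, labelled with biotin and hybridised to a 1-colour Affymetrix array, per the labels. The deposited log2 values give 1 expression level per probe set and array, and for them the submitters' processing notes name RMA and Affymetrix Expression Console 1.4.1.46 without stating their roles. RMA corrects background, quantile-normalizes and summarizes probes, so changes shared by all genes of an array are removed. The build of the array annotation was not given in the sources used. Of 28846 probe sets, 19572 had 1 gene symbol in the platform annotation and 0 had several, and all 19572 matched RefSeq (GRCm38.p6) by Entrez identifier with 0 symbols changed. For a gene with several probe sets, the one with the highest mean was used.

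All 13 arrays were fitted as 4 group means with limma 3.58.1 (R 4.3.3, lmFit and eBayes), with Benjamini-Hochberg adjustment of p over 19572 probe sets. The fit was tested on simulated data. Separate mice per array are not stated in the labels, which give no cage, batch or scan date either. The p-values thus reflect the spread among these samples, which may be technical, and cage and treatment cannot be told apart. The number of arrays limits the precision. No columns were identical.

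The members and lists were chosen with earlier results of these data known. Beside the 10 members, 15 lists with 184 entries were used, of which 165 were measured. The text names all members, and from the tuft and type 2 lists the genes past the threshold with vancomycin, otherwise those of smallest p, and up to 6 of the genes past the threshold between tissues. In lists of other cells the genes past the threshold with vancomycin are named, and the others, whose members of smallest p the rule also named, are given by counts and means. Likeness was ranked by Pearson correlation of within-group deviations. The alternatives were the compared groups fitted alone, array weights, quantile normalization, median centring, a trended and robust prior, removal of the dimmest 33.3% of probe sets, the mean of a gene's probe sets, the replicate number as a block and each array left out in turn.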

Additional observations from a re-analysis of the deposited data

How the results depend on the processing

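No member passed the threshold with vancomycin in the colon, in the ileum, in their difference or in their mean under any setting run, by limma in each case. At unadjusted p under 0.05 the count was 0 to 2 of the members in the colon and 0 or 1 in the ileum, depending on the setting. Between colon and ileum without antibiotic, 3 members passed, with 5 when these groups were fitted alone, 1 without the dimmest 33.3% of probe sets (in which 4 members stay) and 2 to 3 with 1 array left out. Sucnr1 missed the threshold in the main fit and passed it in most of the other settings, as given above. Under vancomycin, 4 passed, with 0 when the groups were fitted alone, 1 without those dim probe sets and 1 to 3 with 1 array left out. With array weights Sucnr1 under vancomycin had a difference of -0.66 (limma adjusted p = 0.0938). No member past the threshold changed sign under any setting run. In the ileum 105 probe sets passed with vancomycin, with 20 when fitted alone, 1012 with array weights and 40 to 172 with 1 array left out. In the colon 2 passed, with 0 when fitted alone or median-centred, 38 with array weights and 0 to 217 with 1 array left out. Array weights gave 191 against 37 for the difference between tissues, 1235 against 132 for the mean (12 to 84 and 23 to 281 with 1 array left out) and 4903 against 2961 for colon against ileum under vancomycin, where fitting alone gave 1875. The causes were not tested.

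Colon and ileum samples share replicate numbers. Of 6 same-numbered pairs, 3 had a correlation of deviations over 0.1 (range -0.02 to 0.24), so the numbers were not taken to pair the samples. The pairs over 0.1 were those under vancomycin, replicates 11, 13 and 14 (0.24, 0.18 and 0.11). Replicates 1, 2 and 3 without antibiotic had 0.08, 0.03 and -0.02. These values do not settle whether the samples are paired. With the replicate block (consensus correlation 0.0975) 4 members passed between tissues without antibiotic and 4 under vancomycin, and 72 probe sets passed for the mean change, against 132. The added member was Sucnr1 (limma adjusted p = 0.0390).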
